A study of Homo sapiens with 2 samples.

Results

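The proteasome genes of U87 cells, an established human glioblastoma line, were examined by RNA sequencing. Cells had received either the vehicle DMSO or the curcumin analog CCA-1.1 for 72 h. The set was chosen by name and holds 45 protein-coding genes, PSMA1 to PSMA7, PSMB1 to PSMB10, PSMC1 to PSMC6, PSMD1 to PSMD14, PSME1 to PSME4 and PSMG1 to PSMG4, of the 41582 gene symbols in the table. Both cultures were labelled wild type and were grown in RPMI with serum; the dose of CCA-1.1 used for sequencing is not given in the sources used here. There was 1 library per condition, so the differences given here rest on single libraries, without replicates, and none was tested.

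The proteasome is the protease that degrades most ubiquitin-tagged proteins of the cell. Its core particle, the 20S, is a barrel of alpha subunits (PSMA genes) and beta subunits (PSMB genes), and the catalytic sites lie on beta subunits inside the barrel. The 19S cap recognises ubiquitin chains, removes them and threads the substrate into the core, using a ring of ATPases (PSMC genes) and non-ATPase subunits (PSMD genes). In cells exposed to interferon gamma, PSMB8, PSMB9 and PSMB10 take the places of the constitutive catalytic subunits to form the immunoproteasome, which supplies peptides for MHC class I. The PSME genes encode activators that can dock on the core in place of the cap, while the PSMG genes and PSMD5, PSMD9 and PSMD10 encode chaperones that help to assemble the particle.

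Upstream sequences are shown first for PSMB8 and PSMB9, which gave the lowest differences among the proteasome genes, and for PSMB10 and PSME2, which are interferon-inducible too but had smaller differences. The set is completed by PSMB5, the constitutive counterpart of PSMB8, and by PSMG2, the gene with the highest difference. Each run is the 250 bases before a RefSeq transcript start on GRCh38.p14, written on the strand of the gene, and capitals mark matches to 3 motifs searched on both strands, TGACNNNGC (the core of the antioxidant response element), CCAAT (the CCAAT box), and GAAA and GAAA separated by any 2 bases (an interferon-stimulated element). No 2 matches overlap in these runs. PSMB8 has 2 windows because RefSeq gives it 2 starts; for PSMB5 and PSMG2 only the first window is printed.
PSMB8, minus strand, chr6:32844680-32844929: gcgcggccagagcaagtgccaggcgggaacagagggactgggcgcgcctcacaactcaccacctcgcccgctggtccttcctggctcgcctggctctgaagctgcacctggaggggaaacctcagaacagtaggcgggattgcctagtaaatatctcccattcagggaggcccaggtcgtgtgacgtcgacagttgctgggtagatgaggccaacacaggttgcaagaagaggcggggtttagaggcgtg
PSMB8, second start, minus strand, chr6:32844048-32844297: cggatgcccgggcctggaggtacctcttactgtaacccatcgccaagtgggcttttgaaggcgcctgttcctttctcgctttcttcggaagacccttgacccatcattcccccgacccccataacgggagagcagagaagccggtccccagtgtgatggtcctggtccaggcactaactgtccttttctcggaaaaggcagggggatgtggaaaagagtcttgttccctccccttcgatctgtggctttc
PSMB9, plus strand, chr6:32853942-32854191: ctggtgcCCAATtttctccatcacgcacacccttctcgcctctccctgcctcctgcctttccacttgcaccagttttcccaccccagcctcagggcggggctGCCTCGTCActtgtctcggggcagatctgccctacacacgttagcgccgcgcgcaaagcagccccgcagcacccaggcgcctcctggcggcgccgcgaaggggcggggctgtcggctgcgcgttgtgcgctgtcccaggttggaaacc
PSMB10, minus strand, chr16:67936851-67937100: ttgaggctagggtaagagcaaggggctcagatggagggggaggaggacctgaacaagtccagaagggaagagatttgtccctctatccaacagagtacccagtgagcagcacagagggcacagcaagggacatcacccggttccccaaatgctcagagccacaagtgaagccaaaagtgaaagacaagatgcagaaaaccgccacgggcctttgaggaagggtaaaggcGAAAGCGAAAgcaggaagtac
PSME2, minus strand, chr14:24146611-24146860: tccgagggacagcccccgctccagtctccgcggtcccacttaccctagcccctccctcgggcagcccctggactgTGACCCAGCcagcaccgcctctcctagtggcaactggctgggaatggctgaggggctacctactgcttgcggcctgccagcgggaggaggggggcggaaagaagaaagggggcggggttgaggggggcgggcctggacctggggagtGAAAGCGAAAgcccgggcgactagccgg
PSMB5, minus strand, chr14:23035221-23035470: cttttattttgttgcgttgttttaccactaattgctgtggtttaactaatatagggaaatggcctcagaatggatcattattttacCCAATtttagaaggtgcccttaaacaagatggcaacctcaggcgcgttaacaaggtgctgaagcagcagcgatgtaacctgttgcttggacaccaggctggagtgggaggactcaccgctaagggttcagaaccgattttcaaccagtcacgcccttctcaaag
PSMG2, plus strand, chr18:12658488-12658737: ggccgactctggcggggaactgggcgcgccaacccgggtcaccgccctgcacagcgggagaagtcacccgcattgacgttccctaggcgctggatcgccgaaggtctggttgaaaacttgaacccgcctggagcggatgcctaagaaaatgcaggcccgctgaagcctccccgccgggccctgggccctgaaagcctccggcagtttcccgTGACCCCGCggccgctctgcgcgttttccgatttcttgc
The same 10-base match to the interferon-stimulated element lay 21 bases before the start in PSMB10 and 28 bases before it in PSME2, counted from the first base of the match. The PSMB9 window held a CCAAT box and an antioxidant response element core, and neither PSMB8 window held a match to the 3 motifs. A match is a run of letters and not a measured binding site, and the lack of one says only that these letters are not in the window.

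The proteasome genes were set against the 7906 protein-coding genes whose mean reached 10 TPM, a unit that divides reads by transcript length and library total and so allows levels of different genes to be compared. Differences are log2((CCA-1.1 TPM + 1) / (DMSO TPM + 1)), where a gene's level is the sum over its transcripts. As a whole, the set was slightly lower in the CCA-1.1 library. Its summed level was 6951 TPM under DMSO and 6545 TPM under CCA-1.1, that is 0.695% and 0.654% of all TPM. These are means over all cells of a culture, so fewer cells with high levels and lower levels per cell cannot be told apart. The median difference of the 45 genes was -0.09, beside 0.0039 over the 7906 genes, whose 5th and 95th percentiles were -0.29 and 0.31. None of the 45 genes passed 2-fold, beside 0.215% of all genes past it in either direction. A smaller fold of 1.2, or 0.26 on the log2 scale, was passed by 1 proteasome gene in the direction of CCA-1.1, PSMG2, where 7.44% of all genes passed it. It was passed by 2 in the direction of DMSO, PSMB8 and PSMB9, where 6.07% of all genes did. By direction alone, 32 of the 45 genes (48.8% of all genes) were lower under CCA-1.1, whereas 13 (51.2% of all genes) were higher. The proteasome genes are abundant, and among the 3002 genes whose mean reached 50 TPM, 56.2% were lower and 43.8% higher, with a median of -0.02. Of these abundant genes 0.3% passed 2-fold, 5.83% were higher past 1.2-fold and 6.83% were lower past it. Of the 45 genes, 37 reached that mean, 44 reached 10 TPM, and PSMG4 was below it at 9.90 TPM under DMSO and 9.07 TPM under CCA-1.1. Without this gene the median was -0.09.

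**Figure D1:**
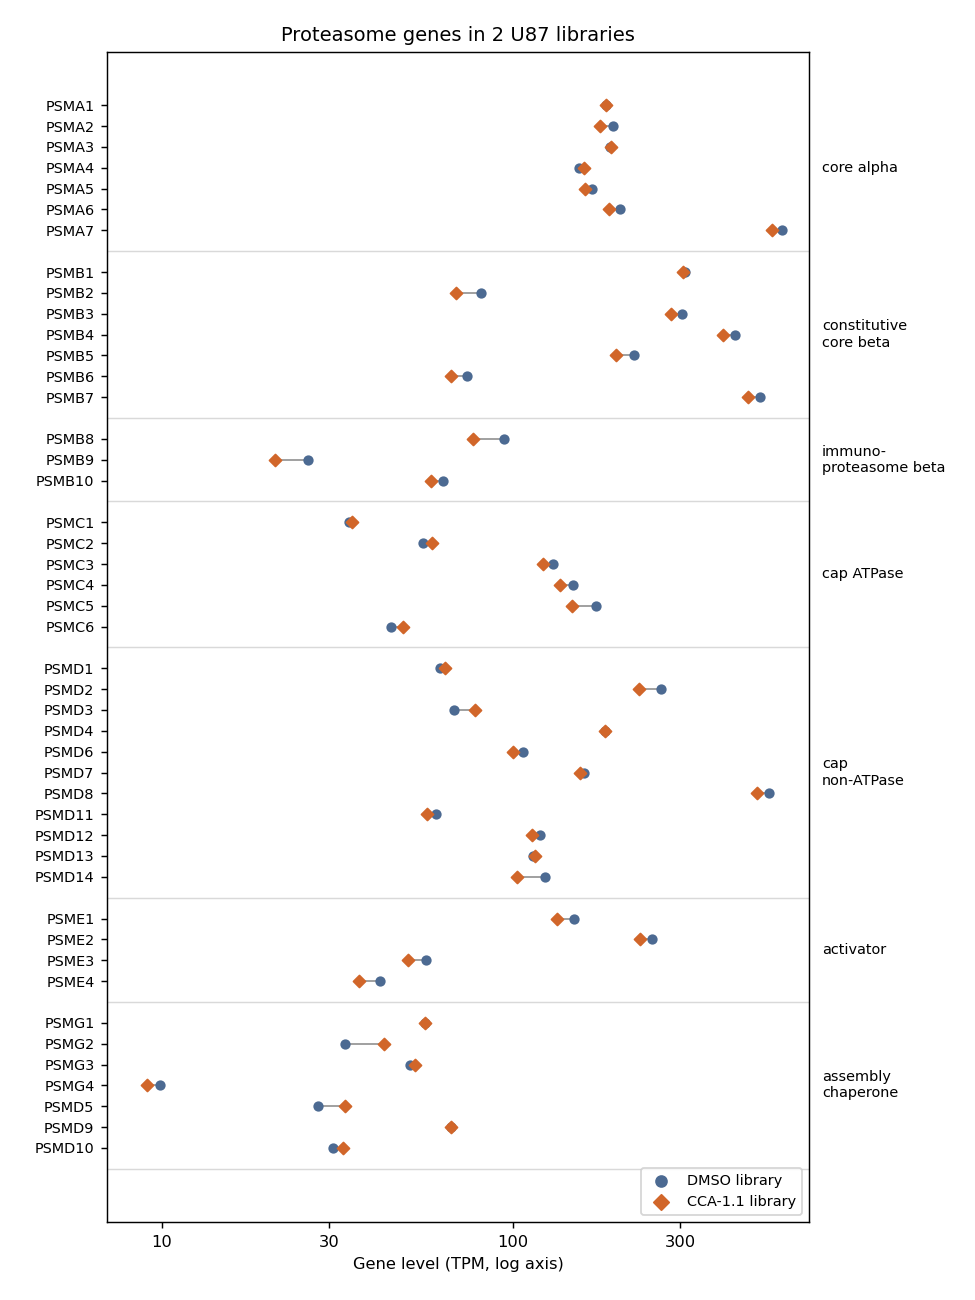
Levels of the 45 proteasome genes in TPM on a log axis, with a circle for the DMSO library, a diamond for the CCA-1.1 library and rows grouped by role. Most pairs lie close together compared with the distance between genes, which spans 9.90 TPM (PSMG4) to 583.6 TPM (PSMA7) in DMSO.

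The 2 libraries ordered the proteasome genes almost alike (Spearman rho of 0.994 over 45 genes, as a description of genes that share both libraries). The level of 14 of them lay above the 90th percentile of all 7906 genes. PSMA7, PSMD8 and PSMB7 had the highest levels in both libraries. Subunits that each particle holds in equal number did not have equal TPM, and how closely TPM follows mRNA number between genes was not tested. Within the alpha ring the highest level was 3.77 times the lowest in DMSO and 3.44 times in CCA-1.1. The ratio was 6.83 and 7.05 in the constitutive beta ring, 5.04 and 4.24 among the ATPases and 8.89 and 8.67 among the non-ATPase cap subunits. Differences between genes of one ring were therefore far larger than those between the libraries.

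In the alpha ring, which forms the outer gates of the core, the 7 genes stayed between -0.12 and 0.04. PSMA2 had the lowest difference, with 193.4 TPM under DMSO and 177.9 TPM under CCA-1.1 (-0.12). PSMA4 had the highest, with 154.9 TPM and 159.4 TPM (0.04). PSMA7, the most abundant of all 45 genes, was at 583.6 TPM and 547.6 TPM (-0.09). Of the remaining alpha genes, PSMA6 was at 202.4 TPM and 187.9 TPM, PSMA5 at 168.4 TPM and 160.3 TPM, PSMA1 at 185.0 TPM and 184.3 TPM, and PSMA3 at 189.2 TPM and 190.7 TPM. The ring summed to 1677 TPM under DMSO and 1608 TPM under CCA-1.1, a difference of -4.10%. In CCA-1.1, 5 of its 7 genes were lower, beside 56.2% of all genes whose mean reached 50 TPM.

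All 7 constitutive beta genes were lower in the CCA-1.1 library, from -0.23 to -0.01, with a median of -0.11. Of all genes whose mean reached 50 TPM, 56.2% were lower. PSMB5, which carries the chymotrypsin-like site that bortezomib blocks, was at 221.6 TPM under DMSO and 196.6 TPM under CCA-1.1, a difference of -0.17. PSMB6, the caspase-like subunit, was at 74.3 TPM and 66.7 TPM (-0.15), and PSMB7, the trypsin-like subunit, at 507.2 TPM and 469.9 TPM (-0.11). The 3 catalytic genes were thus each lower, and their sum differed by -8.71%. Among the beta genes without a catalytic site, PSMB2 had the lowest difference of the ring, with 81.2 TPM and 69.0 TPM (-0.23), and PSMB1 the highest, with 309.1 TPM and 306.0 TPM (-0.01). PSMB3 was at 304.5 TPM and 282.8 TPM, and PSMB4 at 429.4 TPM and 397.6 TPM, both at -0.11. Alpha and constitutive beta genes together summed to 3604 TPM under DMSO and 3397 TPM under CCA-1.1, which is -5.76%.

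The lowest differences of the whole set were those of 2 immunoproteasome genes. PSMB9, on chromosome 6 from 32854192 to 32859851, was at 26.0 TPM under DMSO and 21.1 TPM under CCA-1.1, a difference of -0.29 or -19.2% without the pseudocount. PSMB8, on the same chromosome from 32840717 to 32844679, was at 94.8 TPM and 77.2 TPM, also -0.29, or -18.6%. PSMB10, on chromosome 16 from 67934506 to 67936850, was at 63.5 TPM and 58.4 TPM (-0.12). PSMB8 and PSMB9 lay at the 4.64th and 4.60th percentiles of all 7906 differences, so they are at the edge of the spread between these libraries and not outside the range that many other genes reached. PSMB10 was within the range of the constitutive beta genes. The antisense RNA PSMB8-AS1 was at 8.44 TPM and 6.96 TPM (-0.25), and whether the libraries kept strand is not given in the sources used here, so reads of PSMB8 and of this RNA may not be separable.

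All immunoproteasome genes were expressed in the DMSO library already, and the constitutive subunit was the more abundant at every site. PSMB8 made up 29.96% of the summed PSMB8 and PSMB5 level under DMSO and 28.2% under CCA-1.1. PSMB9 made up 25.96% and 23.997% of the pair with PSMB6, and PSMB10 made up 11.1% in both libraries of the pair with PSMB7. The inducible share over the 3 sites was 18.7% under DMSO and 17.6% under CCA-1.1, a change of -1.07 percentage points. Since constitutive genes were lower as well, the ratio of PSMB8 to PSMB5 differed by only -0.12 on the log2 scale, that of PSMB9 to PSMB6 by -0.15 and that of PSMB10 to PSMB7 by -0.01.

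The table separates 2 transcripts of PSMB8, which differed from each other. NM_004159.5 was at 51.23 TPM under DMSO and 37.04 TPM under CCA-1.1 (-0.46), while NM_148919.4 was at 43.6 TPM and 40.2 TPM (-0.11). The leading transcript of PSMB8 was therefore NM_004159.5 in DMSO, with 54.04% of the gene, and NM_148919.4 in CCA-1.1, with 52.02%. Kallisto divides reads shared by both transcripts by estimation, and reads over the junctions that distinguish them were not analysed here. PSMB9 and PSMB10 each have a single transcript in the table, so no such division affects them.

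Of the 17 cap genes, 7 were higher and 10 lower in CCA-1.1, while 2 of the 14 core genes were higher and 12 lower. Among all genes 51.2% were higher and 48.8% lower. Of those whose mean reached 50 TPM, 43.8% were higher and 56.2% lower. Of the 6 ATPases, 3 were higher and 3 lower in CCA-1.1. PSMC5 had the lowest difference, with 172.9 TPM under DMSO and 148.0 TPM under CCA-1.1 (-0.22), and PSMC6 the highest, with 45.1 TPM and 48.8 TPM (0.11). With the most abundant transcript alone PSMC5 gave -0.13, its minor form NM_001199163.2 being at 31.84 TPM and 18.92 TPM. The value of PSMC6 rests on predicted transcripts, since its curated NM_ transcripts alone gave -0.15. PSMC3 was at 130.4 TPM and 122.1 TPM and PSMC4 at 148.2 TPM and 136.5 TPM, while PSMC1 was at 34.3 TPM and 34.9 TPM and PSMC2 at 55.5 TPM and 59.0 TPM. The ATPase ring summed to 586.3 TPM and 549.2 TPM, a difference of -6.33%. RefSeq lists 13 pseudogene loci named after PSMC1 and 52 named after 21 of the 45 genes. It gives 0 transcripts for these loci, so reads from these copies could be counted under the parent genes.

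Among the 11 non-ATPase cap genes, 4 were higher and 7 lower in CCA-1.1, with a median of -0.07. For all genes whose mean reached 50 TPM the shares were 43.8% and 56.2%. PSMD14, the deubiquitinase that cuts ubiquitin chains off the substrate, had the lowest difference, with 123.4 TPM under DMSO and 103.3 TPM under CCA-1.1 (-0.25). PSMD2, a scaffold of the cap base, followed with 265.2 TPM and 229.2 TPM (-0.21). PSMD3, a subunit of the lid, had the highest difference, with 68.0 TPM and 78.4 TPM (0.20), so lid genes differed in opposite directions. PSMD4, a receptor for ubiquitin chains, was at 183.3 TPM and 183.6 TPM, a difference under 0.01 whose sign changed when the libraries were scaled by their median ratio. PSMD8, the most abundant cap gene, was at 538.4 TPM and 495.8 TPM (-0.12). The other non-ATPase genes were between -0.09 for PSMD6, at 106.79 TPM and 99.96 TPM, and 0.05 for PSMD1, at 62.2 TPM and 64.2 TPM. The 17 cap genes of the set together summed to 2388 TPM under DMSO and 2246 TPM under CCA-1.1, which is -5.94%, beside -5.76% for the core. The cap subunits SEM1 and ADRM1 fall outside the set by name and are not in this sum. SEM1 was higher in CCA-1.1, at 140.8 TPM and 174.6 TPM, and ADRM1 lower, at 241.5 TPM and 225.2 TPM.

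**Figure D2:**
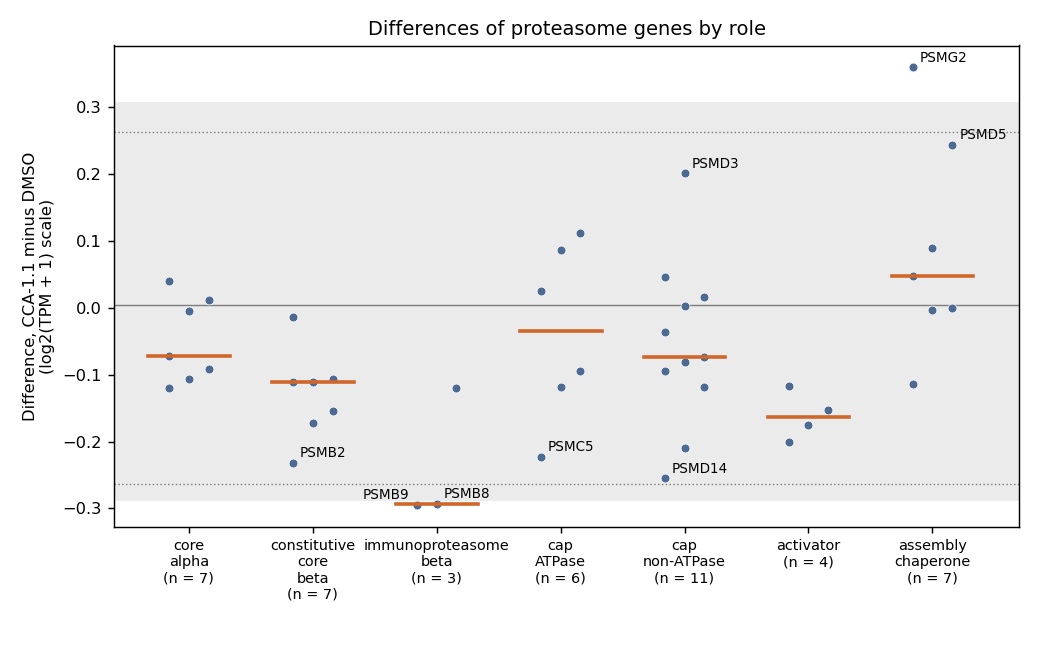
Difference of each proteasome gene (CCA-1.1 minus DMSO, log2(TPM + 1) scale) by role, with 1 point per gene, orange bars at group medians, a grey band from the 5th to the 95th percentile of 7906 protein-coding genes and dotted lines at 1.2-fold. PSMB8, PSMB9 and PSMG2 lie beyond the dotted lines, and the group medians run from -0.29 for the immunoproteasome to 0.05 for the assembly chaperones.

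All 4 activator genes were lower in CCA-1.1, beside 48.8% of all genes and 56.2% of those whose mean reached 50 TPM. None was lower past 1.2-fold, beside 6.07% of all genes. PSME1 and PSME2 encode the interferon-inducible activator PA28 alpha and beta. Both lie on chromosome 14, from 24136194 to 24138962 and from 24143365 to 24146610, with 4402 bases between them. PSME1 was at 149.2 TPM under DMSO and 134.1 TPM under CCA-1.1 (-0.15), and PSME2 at 250.1 TPM and 230.6 TPM (-0.12). The ratio of PSME2 to PSME1 was 1.68 and 1.72. PSME3, the nuclear activator PA28 gamma, was at 56.8 TPM and 50.2 TPM (-0.18), and PSME4, which encodes PA200, at 42.0 TPM and 36.4 TPM (-0.20). The interferon-inducible activators were thus not lower than the other 2. RefSeq lists 6 pseudogene loci of PSME2.

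The assembly chaperones had the only positive median of the roles, 0.05, and summed to 276.1 TPM under DMSO and 294.0 TPM under CCA-1.1. Of the 7 genes, 4 were higher and 3 lower, beside 51.2% and 48.8% of all genes. All 7 had means under 100 TPM, and 46.7% of all genes with a mean from 10 to under 100 TPM were lower. PSMG2, which pairs with PSMG1 to build the alpha ring, had the highest difference of all proteasome genes. It was at 33.4 TPM under DMSO and 43.1 TPM under CCA-1.1, a difference of 0.36 or 29.2% without the pseudocount, at the 96.9th percentile of all genes. Its partner PSMG1 was at 56.4 TPM and 56.3 TPM, a difference within 0.01 of 0. PSMD5, a chaperone of the cap base, was at 28.0 TPM and 33.3 TPM (0.24), just under 1.2-fold. PSMD10, also called gankyrin, was at 30.9 TPM and 32.9 TPM (0.09), and PSMD9 was at 66.8 TPM in both libraries. PSMG3 was at 50.9 TPM and 52.6 TPM (0.05), and PSMG4 had the lowest difference of the group (-0.11).

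By single transcripts, the 45 genes have 122 entries in the table, of which 9 were at 0 in both libraries. A 2-fold difference was passed by 3 of them in the direction of CCA-1.1, beside 1.17% of all 177816 transcripts, and by 2 in the direction of DMSO, beside 1.07%. The 3 were PSMA4 NM_002789.6 at 1.24 TPM and 3.66 TPM, PSMA5 NM_001199774.2 at 0.82 TPM and 2.71 TPM, and PSMD12 NM_174871.4, which had a listed value of 0 under DMSO and 1.32 TPM under CCA-1.1. Each is a minor form of its gene. With a mean of at least 1 TPM required, 84 entries of the 45 genes were left. Of these 84, 2 were higher past 2-fold, beside 3.66% of all 34503 such transcripts, and 1 was lower, beside 3.38%. The largest difference of the 5 was PSMG1 NM_203433.2, at 12.3 TPM under DMSO and listed at 0 in CCA-1.1, while PSMG1 NM_001261824.1 was at 10.4 TPM and 21.5 TPM. These opposite values left the PSMG1 total level, and the form with the highest level of PSMG1 in both libraries was the non-coding NR_049728.1 at 24.5 TPM and 25.2 TPM. The last was PSMD6 XM_017007569.1, at 1.90 TPM under DMSO and listed at 0 in CCA-1.1. In 34 of the 45 genes a single transcript held over 90% of the level in both libraries.

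The genes that work with the proteasome were described in 5 lists. Of 9 other proteasome parts and assembly factors, 1 was higher past 1.2-fold and none lower, beside 7.44% and 6.07% of all genes. This was SEM1, the smallest subunit of the lid, at 140.8 TPM under DMSO and 174.6 TPM under CCA-1.1 (0.31). POMP, which matures the core, was at 78.67 TPM and 74.95 TPM, and ADRM1, a ubiquitin receptor of the cap, at 241.5 TPM and 225.2 TPM. PSMA8 and PSMB11, which replace core subunits in testis and thymus, were near 0 in both libraries, with 0.03 TPM each in DMSO. Among 5 genes for ubiquitin and its E1 enzymes, read against the same shares, only RPS27A, which encodes ubiquitin fused to a ribosomal protein, passed 1.2-fold, at 889.2 TPM and 1191 TPM (0.42). The polyubiquitin gene UBB was at 1041 TPM and 957.9 TPM. Of 11 genes for shuttle factors, deubiquitinases and the unfoldase complex none passed 1.2-fold, read against the same shares. VCP had the lowest difference, at 285.7 TPM and 245.8 TPM (-0.22), and UCHL5 the highest, at 20.1 TPM and 23.9 TPM (0.24).

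The transcription factors NFE2L1 and NFE2L2 and their partners formed a list of 8 regulators. None passed 1.2-fold, where 7.44% of all genes were higher past it and 6.07% lower. By direction alone 6 were higher in CCA-1.1, beside 51.2% of all genes. NFE2L1, which restores proteasome gene expression when the proteasome is inhibited, was at 169.0 TPM under DMSO and 154.4 TPM under CCA-1.1 (-0.13). NFE2L2 was at 85.8 TPM and 95.7 TPM (0.16). NGLY1 and DDI2, which process NFE2L1 into its active form, were at 85.2 TPM and 96.3 TPM and at 11.3 TPM and 11.7 TPM. The antioxidant response element core bound by both factors matched in 13 of 47 upstream windows of the proteasome genes (27.7%), beside 10.9% of all 35116 windows. The 13 genes with a match had differences from -0.29 (PSMB9) to 0.36 (PSMG2), which is the range of the whole set. The CCAAT box matched in 38.3% of proteasome gene windows beside 32.0% of all, and the interferon-stimulated element in 10.6% beside 3.02%. The 5 genes with a match to the interferon-stimulated element were PSMA4, PSMB4, PSMB10, PSME2 and PSMG4. The windows of the interferon-inducible genes PSMB8, PSMB9 and PSME1 held no match to it. No windows were found for PSMA7, PSMB1, PSMB6, PSMB7, PSMD4 and PSMG3, which leaves 39 genes matched.

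The antigen processing list, which holds genes that trim, carry or present proteasome peptides and 4 genes for interferon receptors or transcription factors, had the lowest median of the 5 lists, -0.17. Of its 10 genes, 4 passed 1.2-fold, each lower in CCA-1.1, where 6.07% of all genes were lower past it. TAP1 and TAP2, which encode the peptide transporter, were at 88.8 TPM under DMSO and 63.7 TPM under CCA-1.1 (-0.47) and at 26.8 TPM and 20.5 TPM (-0.37). TAPBP, which encodes tapasin, was at 116.5 TPM and 88.4 TPM (-0.39), and the peptidase gene ERAP2 at 44.5 TPM and 34.9 TPM (-0.34). TAP1 lies between PSMB8 and PSMB9 on chromosome 6, from 32845209 to 32853704, and 487 bases lie between it and PSMB9. TAP2 lies on the other side of PSMB8, from 32821831 to 32838739. The positions of TAPBP and ERAP2 were not examined, and the part of location in these differences was not tested. Other genes of the list had smaller differences or were higher. B2M, the light chain of MHC class I, was at 12977 TPM and 11916 TPM (-0.12). IRF1 and NLRC5, transcription factors of this pathway, were higher, at 13.2 TPM and 14.1 TPM and at 9.71 TPM and 10.6 TPM.

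**Figure D3:**
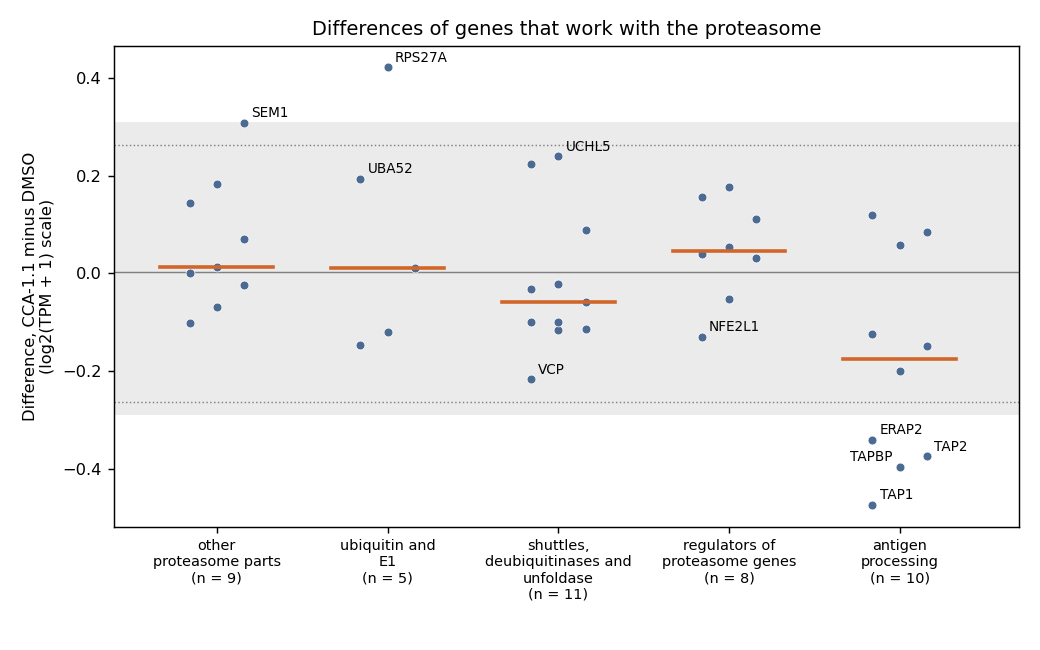
Difference of each gene (CCA-1.1 minus DMSO, log2(TPM + 1) scale) in 5 lists of genes that work with the proteasome, with 1 point per gene, orange bars at list medians, the same grey band as for the proteasome genes and dotted lines at 1.2-fold. TAP1, TAP2, TAPBP and ERAP2 lie below the band, RPS27A lies above it and SEM1 at its upper edge.

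Some properties of the genes and libraries varied with these values. Over the 45 genes the difference had a Spearman rho of -0.36 with GC content and of -0.25 with mean level, beside -0.22 and -0.13 over all genes. Of the 25 proteasome genes whose mean reached 100 TPM, 21 were lower in CCA-1.1, beside 11 of the 20 genes below that mean. Among all protein-coding genes, 57.8% were lower at a mean of at least 100 TPM and 46.7% at a mean from 10 to under 100 TPM. Markers of mesenchymal glioblastoma lines were high in both libraries (VIM at 3217 TPM in DMSO), and 2 of 3, CD44 and FN1, were lower past 1.2-fold in CCA-1.1, beside 6.07% of all genes. The 5 glial markers summed to 15.5 TPM under DMSO and 16.7 TPM under CCA-1.1, with S100B listed at 0 in both and GFAP at 0.41 TPM and 0.57 TPM. No glial marker reached a mean of 10 TPM. Markers of other cell types were below 4 TPM apart from CD68, at 494.2 TPM and 397.1 TPM. The blood cell marker PTPRC was at 0.09 TPM and 0.07 TPM. CD68 was lower past 1.2-fold (-0.31), beside 6.07% of all genes. RBFOX3 (0.29) and the glial marker OLIG2 (0.27) were higher past it, beside 7.44% of all genes, with means under 10 TPM. The part of GC content, level and culture state in the differences was not tested.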

How the data were processed

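RNA of U87 cells was sequenced after 72 h with DMSO or CCA-1.1, with 1 library per condition. Per the labels, mRNA libraries were made with a SMARTER kit. The submitters' processing notes name FastQC 0.11.9 and MultiQC 1.1 for read quality. The authors obtained TPM per transcript by Kallisto pseudo-alignment to a human reference (GRCh38.p14) and deposited it with 2 decimals. The unit was read from column sums of 999999 and 1000000. TPM keeps no read depth, so counting intervals could not be calculated. Of 177816 transcripts, 169966 were matched to RefSeq gene symbols with versions ignored, and TPM was summed per gene. Groups by role, the 2-fold criterion of the study's methods, the 1.2-fold threshold and the gene lists were chosen with earlier results of these data known. A few list genes and 1 motif are not reported here, and the list counts and medians are without them. The genes named are the catalytic subunits, the activators, genes past 1.2-fold, the extremes of each role and list genes past 1.2-fold, with others added after their values were seen. Upstream windows and their sequences are from RefSeq (GRCh38.p14). Lengths and GC content are from the longest GENCODE transcript. The calculation was tested on simulated TPM with planted changes far larger than the gene differences given here, so that test does not cover small differences. Python 3.11.15, numpy 2.4.6, pandas 2.3.3, scipy 1.17.1 and matplotlib 3.10.9 were used.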

Additional observations from a re-analysis of the deposited data

How the results depend on the processing

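No paired analysis was possible because each condition has a single library, which also means that none could be left out. With pseudocounts of 0.1 TPM or none, a minimum mean of 10 TPM, median-ratio scaling (factor 1.003), NM_ transcripts only, the most abundant transcript only or versioned identifiers only, 97 recomputed summary values stayed within 0.05 (log2), 1 percentage point or 1.5 times the count, and 8 did not. The median of the ATPases was -0.11 with NM_ transcripts only, in place of -0.03, because the predicted forms of PSMC6 drop out. With the most abundant transcript only, the median of the assembly chaperones was 0.12, and the inducible share was 15.2% under DMSO and 13.9% under CCA-1.1, since 1 of the PSMB8 transcripts is then left out. With a pseudocount of 0.1 TPM, 8 transcripts of proteasome genes were higher and 9 lower past 2-fold, and with a mean of at least 10 TPM, 0 and 0. Of single genes, 305 values stayed within 0.05 and 9 did not, and the only change of sign by more than that was PSMC6. No proteasome gene passed 2-fold under any of these settings. The missing read counts limit every transcript near 0.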

Other observations

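Long non-coding genes named after proteasome genes were low in both libraries. PSMA3-AS1 was the most abundant, with 13.1 TPM under DMSO and 12.3 TPM under CCA-1.1. PSMD6-AS2 and PSMG3-AS1 were below 1 TPM in both, and PSMD7-DT and PSMD14-DT were listed at 0 in DMSO.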
